A study of Mus musculus with 4 samples.

Results

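The genes of glucose uptake, glycolysis, lactate handling, pyruvate entry into mitochondria and glycogen turnover were described in single cells and single nuclei of the stria vascularis (SV), the epithelium of the cochlear lateral wall. The 34 genes were taken by symbol from the gene lists of all 4 libraries, which hold 27998 genes for the cells and 48816 for the nuclei, and each symbol was found once in each list. The libraries came from untreated CBA/J mice, an inbred wild-type strain, at postnatal day 30, as 3 captures of whole cells and 1 capture of nuclei on the 10x Genomics Chromium system. Each capture was a separate suspension pooled from several mice, about 12 per cell capture and about 10 for the nucleus capture by the sample records, although the study's sources differ on these numbers, so a capture averages over animals and p-values measure the spread between captures, which may be technical. The trypsin-treated cell suspensions and the detergent-prepared nuclei differ in what RNA they hold, since a nucleus carries little cytoplasm.

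The SV generates the endocochlear potential, and the Na,K-ATPase of its mitochondria-rich marginal cells is a large consumer of ATP. Glucose enters cells through transporters of the Slc2a family, is phosphorylated by hexokinase and is split to pyruvate by glycolysis. Pyruvate is either reduced to lactate by lactate dehydrogenase and exported by monocarboxylate transporters, or enters mitochondria through the pyruvate dehydrogenase complex, which its kinases switch off. Basal cells form the outer barrier of the SV toward the spiral ligament, intermediate cells are melanocyte-like cells of the middle layer, and spindle and root cells lie at its edges.

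Levels are in CPM, the unique molecular identifiers (UMIs) of a gene per 1000000 UMIs of all genes that are not mitochondrially encoded (mt- genes), after the UMIs of all cells of a type in a capture were summed. Each captured RNA molecule gives 1 UMI at its 3′ end whatever its length, so levels between genes compare molecules captured. Types were named from clusters by marker genes and comprised 131 marginal, 697 intermediate, 124 basal and 31 spindle/root cells, 983 in all of 3152 kept, and 2631, 1473, 645 and 201 nuclei of 9723 kept. Another 1950 cells and 3845 nuclei met no type's marker rule. Capture 1 held 4 spindle/root cells, too few for a sum, which left 11 sums. The captures held 2811309, 8113494 and 8340882 UMIs for cells and 22332501 for nuclei, and 0 to 6 barcodes were shared between cell captures.

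The marker check fitted the type names in part. All 8 marginal markers were detected in the marginal cells of every capture, and all 6 basal markers in the basal cells. Of the 9 intermediate markers, which include the melanin synthesis gene Dct, Pmel had 0 UMIs in the intermediate cells of every capture and Tyrp1 in captures 1 and 2. The spindle/root cells were 19 cells led by Epyc and 12 cells with Anxa1 and P2rx2, so the name covers a mixture. The 12 cells also held 2451 CPM of the marginal and 2240 CPM of the basal markers, against 138 and 433 CPM in the 19 cells. The part of such RNA in the levels of these 12 cells was not tested. Intermediate markers were also detected in the other types. The 9 intermediate markers summed to 33747 to 46011 CPM in intermediate cells, to 8131 to 13050.0 CPM in marginal, 10358 to 15123 CPM in basal and 775 to 939 CPM in spindle/root cells, against 286 to 1559 CPM in erythroid cells of the same suspensions and 1917 CPM in marginal nuclei. The marginal cluster of 56 cells and the basal cluster of 57 cells held over 10000 CPM of these markers and are called intermediate-rich here. Summed levels, counts of members called in basal and spindle/root cells, and calls lost are therefore also given without them. Members called only without them are counted and not named. Levels and shares of single genes per capture hold all clusters, so those of basal and marginal cells include the intermediate-rich ones.

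Summed over the 34 genes, the level was highest in marginal cells in all 3 captures. It was 9349.6, 8598 and 8839.8 CPM in marginal cells of captures 1, 2 and 3, 7904, 6664 and 7503 CPM in intermediate cells and 5946, 5043 and 4971 CPM in basal cells, and 4277 and 3754 CPM in the spindle/root cells of captures 2 and 3. The means were 8929 ± 384 (SD, n = 3), 7357 ± 633 (SD, n = 3), 5319.8 ± 543 (SD, n = 3) and 4016 ± 369 (SD, n = 2) CPM. The sums used did not overlap between the 4 types, in the order marginal, intermediate, basal and spindle/root. The 4 spindle/root cells of capture 1, which were not used, held 5190 CPM. That level lay above the basal sums of captures 2 and 3 and below that of capture 1. Without the intermediate-rich clusters the mean was 3567 CPM in basal against 4016 CPM in spindle/root cells, the reverse of their order with all clusters. Within a capture the marginal level was 1.57 to 1.78 times the basal level. No p-value is given for a sum over chosen genes.

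**Figure D1:**
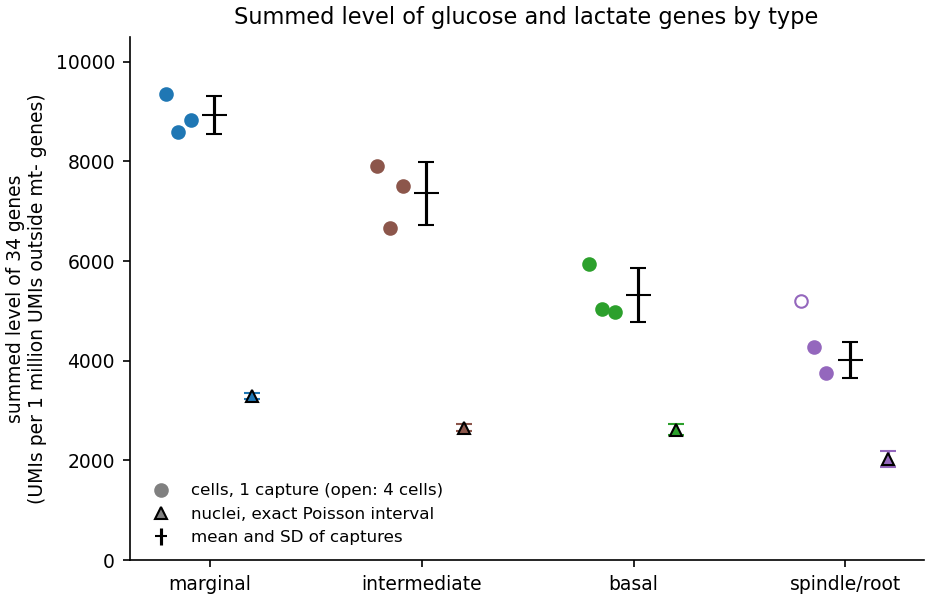
Summed level of the 34 genes in CPM outside mt- genes (vertical axis, from 0) by type, with 1 circle per cell capture (open for the 4 spindle/root cells of capture 1, which were not used), bars for mean and SD over captures, and triangles for nuclei with exact Poisson intervals that cover counting error only. The marginal captures lie between 8598 and 9349.6 CPM, above all other types, and nuclei lie lower than cells in every type.

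Within the basal type the summed level was ordered as the intermediate markers were. The basal cluster with 19323 CPM of intermediate markers held 6825 CPM of the 34 genes, and the basal clusters with 4843 and 2018 CPM of these markers held 3881 and 2855 CPM. Single genes went either way over these clusters in that order. Pfkfb3 was at 325, 61.6 and 18.6 CPM and Eno2 at 47.5, 22.2 and 0 CPM. Slc2a1 was at 131, 219 and 177 CPM and Pdk1 at 106, 197 and 130 CPM. The marginal cluster with 565 CPM of intermediate markers held 7209 CPM of the 34 genes, where the intermediate cluster held 7199 CPM. The share of mt- UMIs, 15.0% to 31.1% over the basal and 11.7% to 32.8% over the marginal clusters, moved in the same order in basal cells, and its part was not tested.

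**Figure D2:**
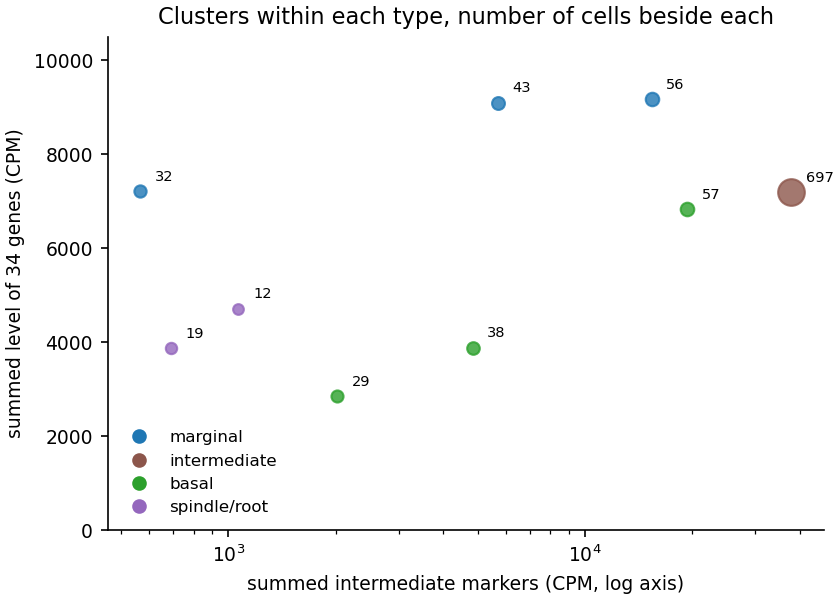
Summed level of the 34 genes (vertical axis, CPM) against the summed level of the 9 intermediate markers (horizontal axis, CPM, log scale) for each cluster of the 4 types, all captures pooled, with the number of cells beside each point. The 3 basal clusters rise from 2855 to 6825 CPM with the level of intermediate markers, and the 3 marginal clusters lie above all 3 of them.

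In the nuclei the order was similar at lower levels, 3290.3 (exact 95% Poisson interval 3235 to 3346) CPM in marginal, 2654 (exact 95% Poisson interval 2588 to 2722) in intermediate, 2616 (exact 95% Poisson interval 2513 to 2722) in basal and 2031 (exact 95% Poisson interval 1877 to 2195) in spindle/root nuclei. The intermediate and basal intervals overlapped. These intervals cover counting error only, and the nuclei, as 1 library, carry no test.

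Of the 34 genes, 24 passed the filter on low counts and were tested among 7135 genes with edgeR's quasi-likelihood test, each type set against the average of the remaining 3, in a model that holds the capture as a block, and with Benjamini-Hochberg adjustment over all genes tested. The 10 that did not pass were Slc2a3, Hk2, Slc16a1, Slc16a3, Slc16a7, Pdk3, Pdk4, Gys1, Pygl and Pgm1, each with at most 87 UMIs over the 11 sums. In marginal cells 11 of the 24 were higher and 2 lower at an adjusted p under 0.05, where 15.4% and 10.8% of all genes tested were. In intermediate cells 11 were higher and 2 lower, against 21.3% and 16.5% of all genes. In basal cells 3 were higher and 3 lower, against 15.8% and 9.75%. In spindle/root cells 1 was higher and 13 were lower, against 12.8% and 10.8%. The median log2 fold change of the 24 was 0.58 in marginal, 0.40 in intermediate, -0.13 in basal and -1.04 in spindle/root cells, where that of all genes tested was 0.05, 0.09, 0.03 and -0.14. Without the intermediate-rich clusters, 23 members were tested, of which 3 were higher and 11 lower in basal cells, against 18.6% and 15.0% of all genes. The median of the members in basal cells was -0.90 there, and -0.50 without spindle/root sums. In spindle/root cells 1 was higher and 11 lower without the intermediate-rich clusters, against 15.3% and 8.96%. Without spindle/root sums, 2 were higher and 13 lower in basal cells, against 16.5% and 13.7%. Where capture 2 or 3 was left out, spindle/root cells were 1 sum, which the fit assumes to vary like the other types. Because the contrasts share samples and sum to a fixed mean, a low level in one type raises the others.

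**Figure D3:**
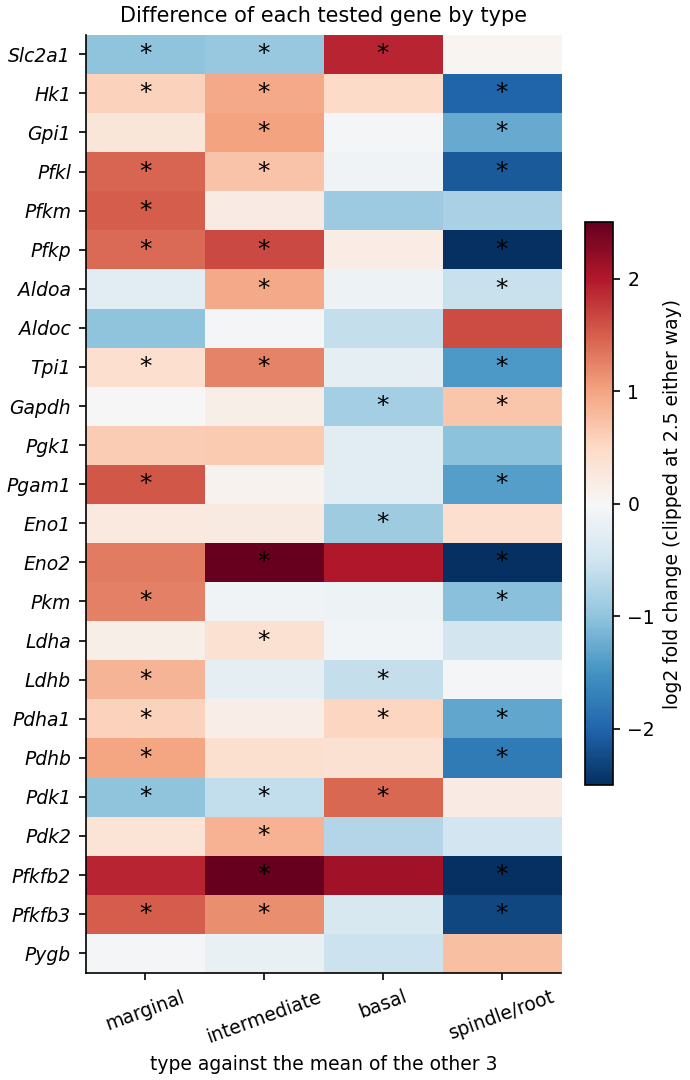
Log2 fold change of each of the 24 tested genes (rows) in each type against the mean of the other 3 types (columns), in color clipped at 2.5 either way, with an asterisk at an adjusted p under 0.05 in edgeR's quasi-likelihood test. Red rows of Slc2a1 and Pdk1 fall in the basal column and most asterisks of the spindle/root column are blue, with 13 genes lower. The colors of Eno2 and Pfkfb2 rest on 0 UMIs in spindle/root cells and give no size.

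Of the glucose transporters, Slc2a1, which encodes GLUT1 of barrier epithelia and capillaries, was at 58.6, 43.3 and 21.3 CPM in marginal, 32.3, 28.8 and 39.6 in intermediate and 174, 197 and 106 in basal cells of captures 1, 2 and 3, and at 77.4 and 36.3 in spindle/root cells of captures 2 and 3. Basal cells were above all other sums of the 4 types without overlap, and the log2 fold change was 1.90 ± 0.21, adjusted p = 4.17e-14. Pooled over captures, 43 fibrocytes, a named class outside the 4 types, held 131 CPM of Slc2a1, within the range of the basal sums. Slc2a1 was lower in marginal (-0.997 ± 0.29, adjusted p = 0.00538) and intermediate cells (-0.95 ± 0.26, adjusted p = 0.00151). The Slc2a1 call did not pass in marginal cells without capture 2 (log2 fold change -0.92, adjusted p = 0.185) and without capture 3 (log2 fold change -0.82, adjusted p = 0.0645) and in intermediate cells without capture 2 (log2 fold change -0.45, adjusted p = 0.426). Its log2 fold change, still past the threshold, was -1.50 without capture 3 in intermediate cells. The basal cells of capture 3, lowest in Slc2a1, had the most UMIs of the 6 endothelial markers, 267 CPM against 11.4 CPM in capture 2, and the part of endothelial RNA was not tested. In nuclei Slc2a1 was at 33.3 (22.6 to 47.2) CPM in basal and 15.2 (11.7 to 19.5) CPM in marginal nuclei, intervals that did not overlap. Intermediate and spindle/root nuclei lay between these, at 22.1 and 22.2 CPM. Slc2a3, a transporter of neurons, gave at most 3 UMIs per sum in cells, and 7.98 (5.49 to 11.2) CPM in marginal nuclei, where it held 34.4% (25.0% to 44.8%) of the UMIs of both transporters.

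Hk1, a hexokinase that binds mitochondria, was at 192, 222 and 189 CPM in marginal, 221, 219.6 and 203 in intermediate and 214, 184 and 140.1 in basal cells of captures 1, 2 and 3, and at 22.1 and 72.7 in spindle/root cells of captures 2 and 3. Spindle/root sums lay below all others, with a log2 fold change of -2.01 ± 0.41, adjusted p = 3.88e-05. Hk1 was called higher in marginal (0.58 ± 0.20, adjusted p = 0.0189) and intermediate cells (0.95 ± 0.17, adjusted p = 1.61e-06), and neither call held with spindle/root sums left out. The Hk1 call did not pass in marginal cells without capture 2 (log2 fold change 0.28, adjusted p = 0.529), without spindle/root sums (log2 fold change -0.0591, adjusted p = 0.778) and without the intermediate-rich clusters (log2 fold change 0.61, adjusted p = 0.057), in intermediate cells without spindle/root sums (log2 fold change 0.24, adjusted p = 0.0942) and in spindle/root cells without capture 2, which left 1 spindle/root sum (log2 fold change -1.31, adjusted p = 0.079). Its log2 fold change, still past the threshold, was 0.96 without capture 3 in marginal cells and -3.18 without capture 3, which left 1 spindle/root sum in spindle/root cells. Hk1 held 98.4% ± 1.56, 99.3% ± 0.857 and 98.3% ± 1.50 (SD, n = 3) of the hexokinase UMIs in marginal, intermediate and basal cells. Hk2, the insulin-regulated hexokinase, had its highest level in the spindle/root cells of capture 2, 66.3 CPM from 6 UMIs, and was at 15.9 (5.15 to 37.0) CPM in spindle/root nuclei against 2.18 (0.995 to 4.13) CPM in marginal nuclei.

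Gpi1, which interconverts glucose and fructose phosphates, was at 256, 234 and 234 CPM in marginal, 323, 268 and 324 in intermediate and 225, 159 and 187 in basal cells of captures 1, 2 and 3, and at 77.4 and 109 in spindle/root cells of captures 2 and 3. It was higher in intermediate cells (0.998 ± 0.14, adjusted p = 8.44e-10) and lower in spindle/root cells (-1.25 ± 0.33, adjusted p = 0.00149). The Gpi1 call did not pass in spindle/root cells without capture 2, which left 1 spindle/root sum (log2 fold change -1.18, adjusted p = 0.0597) and without the intermediate-rich clusters (log2 fold change -0.89, adjusted p = 0.069).

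The phosphofructokinases, which commit sugar to glycolysis, differed by isoform. Pfkl, the liver isoform, was at 660.2, 483 and 559.7 CPM in marginal, 323, 301 and 354 in intermediate and 261, 210.1 and 225 in basal cells of captures 1, 2 and 3, and at 88.4 and 60.6 in spindle/root cells of captures 2 and 3. The marginal sums lay above all others, with a log2 fold change of 1.46 ± 0.15, adjusted p = 1.02e-16, and spindle/root cells were lower (-2.09 ± 0.33, adjusted p = 3.49e-08). It was also called higher in intermediate cells (0.71 ± 0.15, adjusted p = 3.18e-05). The Pfkl call did not pass in intermediate cells without spindle/root sums (log2 fold change -0.0645, adjusted p = 0.666). Pfkm, the muscle isoform, was at 112, 69.2 and 103.4 CPM in marginal, 36.9, 43.3 and 34.6 in intermediate and 18.1, 24.6 and 25.5 in basal cells of captures 1, 2 and 3, and at 11.1 and 36.3 in spindle/root cells of captures 2 and 3 and was higher in marginal cells (1.51 ± 0.28, adjusted p = 4.09e-06). Pfkp, the platelet isoform, was at 154, 147 and 155 CPM in marginal, 168, 129 and 165 in intermediate and 90.7, 64.4 and 76.4 in basal cells of captures 1, 2 and 3, and at 11.1 and 12.1 in spindle/root cells of captures 2 and 3, higher in marginal (1.41 ± 0.27, adjusted p = 6.78e-06) and intermediate cells (1.65 ± 0.24, adjusted p = 1.07e-09) and lower in spindle/root cells (-3.25 ± 0.66, adjusted p = 2.59e-05), the last from 1 UMI in each capture. Pfkp gave 31.9, 27.2 and 29.8% of the family's UMIs in intermediate cells against 16.7, 21.0 and 19.0% in marginal and 24.5, 21.5 and 23.4% in basal cells of captures 1, 2 and 3. These basal shares include the intermediate-rich cluster, which held 131 CPM of Pfkp beside 336 CPM of Pfkl. The basal clusters of 38 and 29 cells held 17.3 and 9.30 CPM of Pfkp beside 126 and 74.4 CPM of Pfkl. Pfkm gave 12.1, 9.90 and 12.6% in marginal against 6.99, 9.14 and 6.24% in intermediate cells. In nuclei Pfkp gave 28.1% (25.8% to 30.4%) in marginal and 31.3% (27.6% to 35.2%) in intermediate nuclei and 16.2% (11.6% to 21.8%) in basal nuclei. The basal share thus lay below the marginal share in nuclei and above it in the cell captures.

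Pfkfb3 and Pfkfb2 encode bifunctional enzymes that make and remove an activator of phosphofructokinase. Pfkfb3 was at 500.5, 573 and 581 CPM in marginal, 417, 357 and 442 in intermediate and 196, 193 and 178 in basal cells of captures 1, 2 and 3, and at 88.4 and 48.4 in spindle/root cells of captures 2 and 3. Marginal sums lay above all others and spindle/root sums below, with a log2 fold change of 1.52 ± 0.15, adjusted p = 2.72e-17 in marginal and -2.28 ± 0.33, adjusted p = 3.7e-09 in spindle/root cells. Pooled over captures, Pfkfb3 was at 9.22 CPM in the 19 spindle/root cells led by Epyc and 147 CPM in the 12 with Anxa1 and P2rx2. It was called higher in intermediate cells (1.16 ± 0.15, adjusted p = 8.63e-12). Pfkfb2 was at 53.2, 39.8 and 39.5 CPM in marginal, 85.3, 86.5 and 124 in intermediate and 29.0, 45.4 and 50.9 in basal cells of captures 1, 2 and 3, and at 0 and 0 in spindle/root cells of captures 2 and 3. It was called higher in intermediate (adjusted p = 3.33e-13) and lower in spindle/root cells (adjusted p = 0.000287), which had 0 UMIs. Against the 17.3 CPM that 3 UMIs over both spindle/root sums would give, the pooled level was at least 5.88-fold higher in intermediate cells. It was at least 2.44-fold higher in basal cells with all clusters pooled. The intermediate-rich basal cluster held 57.0 CPM of Pfkfb2. The basal clusters of 38 and 29 cells held 32.1 and 9.30 CPM of Pfkfb2, the last below the 17.3 CPM. The share of Pfkfb2 in the pair was 7.50% ± 1.84 in marginal and 19.5% ± 2.47 (SD, n = 3) in intermediate cells. In nuclei the share was 7.72% (6.29% to 9.36%) in marginal and 13.5% (9.96% to 17.8%) in intermediate nuclei, while the level of Pfkfb2 was 23.0 (18.6 to 28.1) and 18.6 (13.5 to 25.1) CPM. A transcript of Gm29427 is near-identical to Pfkfb2, with 95 UMIs against 414 on Pfkfb2 in the nuclei and 37 against 609 in the cells, so these shares are uncertain to that extent.

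Below fructose bisphosphate the pattern by type split. Aldoa, the muscle-type aldolase and the member with the most UMIs in cells, was at 1012, 677 and 660.1 CPM in marginal, 1234, 1309 and 1183 in intermediate and 918, 699 and 683 in basal cells of captures 1, 2 and 3, and at 464 and 642 in spindle/root cells of captures 2 and 3. Intermediate sums lay above all others, with a log2 fold change of 0.95 ± 0.10, adjusted p = 2.67e-15. The level was lower in spindle/root cells (-0.55 ± 0.18, adjusted p = 0.0131), and in marginal cells no threshold was passed (-0.27 ± 0.11, adjusted p = 0.0716). The Aldoa call did not pass in spindle/root cells without capture 2, which left 1 spindle/root sum (log2 fold change -0.37, adjusted p = 0.361) and without the intermediate-rich clusters (log2 fold change -0.36, adjusted p = 0.221). Its log2 fold change, still past the threshold, was -0.85 without capture 3, which left 1 spindle/root sum in spindle/root cells. In nuclei Aldoa was at 380.4 (356 to 406) CPM in intermediate and 251 (236 to 267) CPM in marginal nuclei. Basal and spindle/root nuclei lay between these, at 319 and 305 CPM. Aldoc, the brain-type aldolase, passed the filter and no threshold, and held 1.72% ± 0.467 to 7.86% ± 1.19 of aldolase UMIs. Tpi1, triose phosphate isomerase, was at 793, 768 and 727 CPM in marginal, 1187, 903 and 1015 in intermediate and 573, 483 and 484 in basal cells of captures 1, 2 and 3, and at 188 and 315 in spindle/root cells of captures 2 and 3. It was higher in intermediate (1.24 ± 0.11, adjusted p = 2.34e-20) and lower in spindle/root cells (-1.44 ± 0.21, adjusted p = 8.02e-09), and it was called higher in marginal cells too (0.42 ± 0.12, adjusted p = 0.00408). The Tpi1 call did not pass in marginal cells without capture 2 (log2 fold change 0.25, adjusted p = 0.33) and without spindle/root sums (log2 fold change -0.0308, adjusted p = 0.843). In nuclei Tpi1 was at 213 (194 to 232) CPM in intermediate and 204 (190.3 to 218) CPM in marginal nuclei. Basal nuclei were highest, at 219 CPM, and spindle/root nuclei were at 171 CPM.

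Gapdh, which makes NADH at the middle of glycolysis, was at 1001, 761 and 837 CPM in marginal, 932, 675 and 823 in intermediate and 555, 471 and 497 in basal cells of captures 1, 2 and 3, and at 1127 and 896 in spindle/root cells of captures 2 and 3. Basal sums lay below all others (-0.85 ± 0.11, adjusted p = 1.46e-10) and spindle/root cells were higher (0.69 ± 0.15, adjusted p = 0.000119), the only member called higher there. Pooled over captures, Gapdh was at 1687 CPM in the 19 spindle/root cells led by Epyc and 806 CPM in the 12 with Anxa1 and P2rx2. The marginal clusters held 753, 872 and 966 CPM. The Gapdh call did not pass in spindle/root cells without capture 2, which left 1 spindle/root sum (log2 fold change 0.36, adjusted p = 0.326). In the nuclei Gapdh was nearly missing, at 2.66 (1.33 to 4.76) CPM in marginal, 5.20 (2.69 to 9.08) CPM in intermediate and 0 UMIs in basal nuclei, which allows up to 3.22 CPM. Over the whole nucleus library it had 79 UMIs, against 8316 for Aldoa. The gene list of the nuclei holds 37 genes with a transcript at least 90% identical to Gapdh over at least 300 bases, where the list of the cells holds 2. The next largest number of such copies in the nucleus list was 6, for Ldha, and their part in the Gapdh level was not tested.

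Pgk1, phosphoglycerate kinase, passed the filter and no threshold, with 90.5, 31.2 and 30.4 CPM in marginal and 99.1, 20.0 and 30.4 CPM in intermediate cells of captures 1, 2 and 3. Pgam1, phosphoglycerate mutase, was at 1443, 1578 and 1646 CPM in marginal, 627, 541 and 738 in intermediate and 569.5, 538 and 582 in basal cells of captures 1, 2 and 3, and at 320.5 and 291 in spindle/root cells of captures 2 and 3. Marginal sums lay above all others by more than the spread between captures, with a log2 fold change of 1.56 ± 0.11, adjusted p = 2.32e-28, the largest of the 13 members called in marginal cells. It was lower in spindle/root cells (-1.38 ± 0.20, adjusted p = 3.04e-09), and in basal cells no threshold was passed (-0.26 ± 0.12, adjusted p = 0.119). The intermediate-rich basal cluster held 764 CPM of Pgam1, and the basal clusters of 38 and 29 cells held 385 and 186 CPM. In the 19 spindle/root cells led by Epyc Pgam1 was at 148 CPM, and in the 12 with Anxa1 and P2rx2 at 538 CPM. In nuclei Pgam1 was at 350.0 (332 to 369) CPM in marginal and 208 (190.2 to 228) CPM in intermediate nuclei.

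Of the enolases, Eno1, the form found in most tissues, was at 522, 305 and 356 CPM in marginal, 362, 296 and 325 in intermediate and 276, 153 and 178 in basal cells of captures 1, 2 and 3, and at 442 and 218 in spindle/root cells of captures 2 and 3 and was lower in basal cells (-0.90 ± 0.15, adjusted p = 3.92e-07). The Eno1 call did not pass in basal cells without capture 2 (log2 fold change -0.55, adjusted p = 0.0509). Eno1 has a near-identical copy, Eno1b, in the cell list, so its UMIs are uncertain to that extent, with 107 UMIs on the copy and 3367 on Eno1. Eno2, the enolase of neurons, was at 31.9, 26.0 and 18.3 CPM in marginal, 89.9, 74.5 and 111 in intermediate and 39.9, 24.6 and 42.4 in basal cells of captures 1, 2 and 3, and at 0 and 0 in spindle/root cells of captures 2 and 3. Intermediate sums lay above all others, and spindle/root cells had 0 of 173061 UMIs, which allows up to 17.3 CPM. Against that limit the pooled level in intermediate cells was at least 5.29-fold higher, and edgeR called Eno2 higher in intermediate (adjusted p = 1.69e-14) and lower in spindle/root cells (adjusted p = 0.00287). The Eno2 call did not pass in spindle/root cells without capture 3, which left 1 spindle/root sum (adjusted p = 0.0847). Eno2 gave 19.9, 20.1 and 25.4% of the enolase UMIs in intermediate, 12.6, 13.8 and 19.2% in basal and 5.77, 7.85 and 4.88% in marginal cells of captures 1, 2 and 3, and the ranges did not overlap. The marginal clusters of 56, 43 and 32 cells held 37.7, 12.7 and 5.14 CPM of Eno2 beside 330, 352 and 447 CPM of Eno1. Basal clusters of 57, 38 and 29 cells held 47.5, 22.2 and 0 CPM beside 222, 163 and 149 CPM. In both types Eno2 fell in the order of the intermediate markers, whose part was not tested. In nuclei the share of Eno2 was 44.9% (38.8% to 51.1%) in intermediate, 14.1% (6.64% to 25.0%) in basal and 8.55% (5.84% to 12.0%) in marginal nuclei. Intermediate nuclei held Eno1 at 19.3% and Eno2 at 56.3% of the mean level in cells. The nucleus list holds 4 near-identical copies of Eno1, with 28 UMIs against 1548 on Eno1. Their part in the share was not tested.

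Pkm, pyruvate kinase of muscle and most adult tissues, was at 1139, 1218 and 1226 CPM in marginal, 606, 454 and 508 in intermediate and 609, 487 and 548 in basal cells of captures 1, 2 and 3, and at 431 and 182 in spindle/root cells of captures 2 and 3. Marginal sums lay above all others, with a log2 fold change of 1.27 ± 0.11, adjusted p = 3.84e-19. The level was lower in spindle/root cells (-1.05 ± 0.21, adjusted p = 2.28e-05), and in intermediate cells no threshold was passed (-0.0976 ± 0.12, adjusted p = 0.568). Pooled over captures, Pkm was at 157 CPM in the 19 spindle/root cells led by Epyc. In the 12 with Anxa1 and P2rx2 it was at 562 CPM, a level within the range of the basal sums, which hold all basal clusters. The intermediate-rich basal cluster held 682 CPM of Pkm, and the basal clusters of 38 and 29 cells held 414 and 251 CPM. The Pkm call did not pass in spindle/root cells without capture 3, which left 1 spindle/root sum (log2 fold change -0.55, adjusted p = 0.146). Its log2 fold change, still past the threshold, was -1.95 without capture 2, which left 1 spindle/root sum in spindle/root cells. Marginal nuclei were also highest, at 423 (403 to 443) CPM against 301 (266 to 338) CPM in basal nuclei. 3′ counts do not tell the splice forms of Pkm apart.

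Ldha, whose subunit favours the making of lactate, was at 213, 244 and 274 CPM in marginal, 256, 236 and 251 in intermediate and 232, 195 and 191 in basal cells of captures 1, 2 and 3, and at 133 and 194 in spindle/root cells of captures 2 and 3. It was called higher in intermediate cells (0.39 ± 0.14, adjusted p = 0.0155), a call lost under 12 of 18 alternatives. The Ldha call did not pass in intermediate cells without capture 1 (log2 fold change 0.31, adjusted p = 0.103), without capture 2 (log2 fold change 0.34, adjusted p = 0.122), without capture 3 (log2 fold change 0.43, adjusted p = 0.0674) and without spindle/root sums (log2 fold change 0.19, adjusted p = 0.179). Ldhb, whose subunit favours the use of lactate, was at 538, 424 and 487 CPM in marginal, 274, 236 and 213 in intermediate and 236, 219.6 and 161 in basal cells of captures 1, 2 and 3, and at 265 and 242 in spindle/root cells of captures 2 and 3. Marginal sums lay above all others (0.85 ± 0.13, adjusted p = 1.15e-08) and basal cells were lower (-0.60 ± 0.15, adjusted p = 0.000802). Ldhb made up 71.6, 63.5 and 64.0% of the pair in marginal, 51.7, 50.1 and 45.9% in intermediate and 50.4, 53.0 and 45.8% in basal cells of captures 1, 2 and 3, and 66.7 and 55.6% in spindle/root cells of captures 2 and 3. Pooled over captures, the 19 spindle/root cells led by Epyc held 304 CPM of Ldhb beside 55.3 CPM of Ldha. The 12 with Anxa1 and P2rx2 held 187 CPM of Ldhb beside 228 CPM of Ldha. In nuclei Ldhb made up 84.7% (83.2% to 86.3%) in marginal, 76.0% (72.9% to 78.8%) in intermediate, 80.8% (76.7% to 84.5%) in basal and 80.2% (71.1% to 87.5%) in spindle/root nuclei, so that Ldhb was the major form in every type there.

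Of the monocarboxylate transporters, none passed the filter. Slc16a3, which encodes MCT4, an exporter of lactate in glycolytic cells, was at 0, 12.1 and 9.13 CPM in marginal, 39.2, 16.8 and 25.3 in intermediate and 10.9, 3.79 and 17.0 in basal cells of captures 1, 2 and 3, and at 0 and 0 in spindle/root cells of captures 2 and 3, where 0 UMIs in both sums allow up to 17.3 CPM. It gave 70.8, 65.6 and 81.1% of the UMIs of the 3 transporters in intermediate cells of captures 1, 2 and 3. Pooled over captures, the intermediate-rich marginal and basal clusters each held 17.1 CPM of Slc16a3. The remaining marginal and basal clusters held 0 CPM of it. Slc16a1, which encodes MCT1, was at 31.9, 10.4 and 15.2 CPM in marginal, 6.92, 4.01 and 1.69 in intermediate and 10.9, 15.1 and 8.49 in basal cells of captures 1, 2 and 3, and at 0 and 0 in spindle/root cells of captures 2 and 3, and intermediate sums lay below all marginal and basal sums. In nuclei Slc16a3 was at 13.9 (9.48 to 19.6) CPM in intermediate and 1.69 (0.680 to 3.49) CPM in marginal nuclei, and Slc16a1 at 1.73 (0.472 to 4.44) and 14.3 (10.9 to 18.4) CPM. Slc16a7, which encodes the high-affinity MCT2, was at most 9.22 CPM in any sum of cells, yet at 94.5 (85.4 to 104) CPM in marginal nuclei, where it gave 85.6% (82.0% to 88.7%) of the 3 transporters' UMIs. The order of the transporters thus differed between cells and nuclei.

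**Figure D4:**
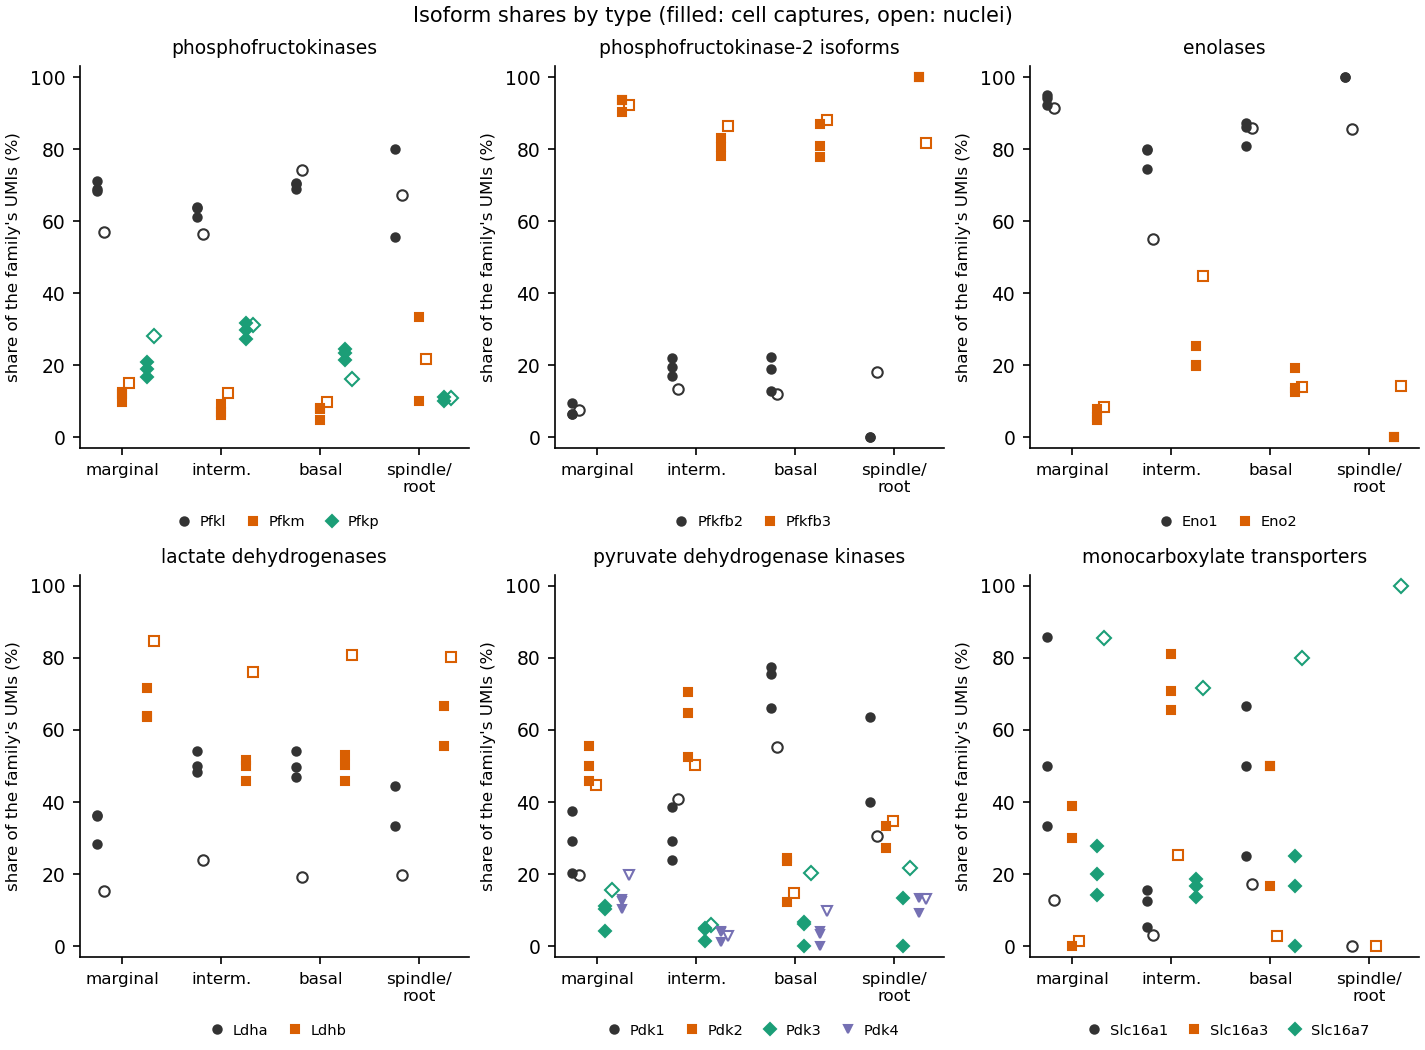
Share of each isoform in its family's UMIs (vertical axis, percent) by type for 6 families, with filled symbols for cell captures and open symbols for nuclei. Eno2 rises to 21.8% on average in intermediate cells, Ldhb to 66.4% in marginal cells and Pdk1 to 73.1% in basal cells.

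Pyruvate enters mitochondria through pyruvate dehydrogenase, whose E1 subunits are encoded by Pdha1 and Pdhb. Pdha1 was at 208, 303 and 310.3 CPM in marginal, 205, 163 and 244 in intermediate and 276, 267 and 221 in basal cells of captures 1, 2 and 3, and at 111 and 84.8 in spindle/root cells of captures 2 and 3, higher in marginal (0.57 ± 0.16, adjusted p = 0.00395) and basal cells (0.55 ± 0.17, adjusted p = 0.00871) and lower in spindle/root cells (-1.29 ± 0.33, adjusted p = 0.00109). The Pdha1 call did not pass in marginal cells without capture 2 (log2 fold change 0.54, adjusted p = 0.0833), without capture 3 (log2 fold change 0.50, adjusted p = 0.0722) and without spindle/root sums (log2 fold change 0.20, adjusted p = 0.223), in basal cells without capture 2 (log2 fold change 0.59, adjusted p = 0.0683) and without spindle/root sums (log2 fold change 0.18, adjusted p = 0.327) and in spindle/root cells without capture 3, which left 1 spindle/root sum (log2 fold change -1.05, adjusted p = 0.0977). Pdhb was at 95.8, 129.8 and 88.2 CPM in marginal, 69.2, 63.3 and 77.6 in intermediate and 79.8, 75.7 and 63.7 in basal cells of captures 1, 2 and 3, and at 22.1 and 24.2 in spindle/root cells of captures 2 and 3 and was higher in marginal cells (0.99 ± 0.26, adjusted p = 0.00115) and lower in spindle/root cells (-1.77 ± 0.59, adjusted p = 0.0175). The Pdhb call did not pass in marginal cells without capture 2 (log2 fold change 0.69, adjusted p = 0.224) and in spindle/root cells without capture 2, which left 1 spindle/root sum (log2 fold change -1.69, adjusted p = 0.181) and without capture 3, which left 1 spindle/root sum (log2 fold change -1.90, adjusted p = 0.114).

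The kinases that switch the complex off are encoded by the 4 Pdk genes. Pdk1, a kinase known as a target of hypoxia-inducible factor, was at 47.9, 48.5 and 33.5 CPM in marginal, 41.5, 41.7 and 55.7 in intermediate and 138, 148 and 144 in basal cells of captures 1, 2 and 3, and at 66.3 and 84.8 in spindle/root cells of captures 2 and 3. Basal sums lay above all others of the 4 types, with a log2 fold change of 1.43 ± 0.20, adjusted p = 1.66e-09, and the level was lower in marginal (-1.01 ± 0.26, adjusted p = 0.0012) and intermediate cells (-0.62 ± 0.22, adjusted p = 0.0177). Pooled over captures, the 43 fibrocytes, a named class outside the 4 types, held 137 CPM of Pdk1. The Pdk1 call did not pass in marginal cells without capture 3 (log2 fold change -0.74, adjusted p = 0.113) and in intermediate cells without capture 2 (log2 fold change -0.46, adjusted p = 0.248). Pdk2 was at 58.6, 83.1 and 91.3 CPM in marginal, 122, 92.2 and 75.9 in intermediate and 21.8, 53.0 and 46.7 in basal cells of captures 1, 2 and 3, and at 55.3 and 36.3 in spindle/root cells of captures 2 and 3 and was higher in intermediate cells (0.87 ± 0.21, adjusted p = 0.000348). Pdk1 gave 77.6, 66.1 and 75.6% of the UMIs of the 4 kinases in basal cells of captures 1, 2 and 3, against 37.5, 29.2 and 20.4% in marginal and 24.0, 29.2 and 38.6% in intermediate cells, where Pdk2 gave 45.8, 50.0 and 55.6% and 70.7, 64.6 and 52.6%. Pdk3 and Pdk4, the latter induced by fasting, were at most 22.1 CPM in any sum. In nuclei Pdk1 gave 55.3% (46.1% to 64.3%) of kinase UMIs in basal, 40.9% (34.8% to 47.3%) in intermediate and 19.8% (15.9% to 24.2%) in marginal nuclei, and Pdk4 was at 18.1 (14.3 to 22.7) CPM in marginal against 3.03 (1.22 to 6.25) CPM in intermediate nuclei.

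The 250 bases before the start of Pdk1 and of Pdk2 are shown because Pdk1 gave most kinase UMIs in basal and Pdk2 in intermediate cells. They are given 5′ to 3′ on the gene's strand from RefSeq on GRCm38.p6, for a window that overlaps no annotated gene. Capitals mark matches, on either strand, to ACGTG (the core of the hypoxia response element), CACGTG (the E-box, which holds that core), to TCATGTG (a motif of the MITF family of factors), to AAGGTCA (a motif of nuclear receptors such as the estrogen-related receptors) and to GGGCGG (the GC box of Sp1 factors).
Pdk1, chr2:71872974-71873223, plus strand: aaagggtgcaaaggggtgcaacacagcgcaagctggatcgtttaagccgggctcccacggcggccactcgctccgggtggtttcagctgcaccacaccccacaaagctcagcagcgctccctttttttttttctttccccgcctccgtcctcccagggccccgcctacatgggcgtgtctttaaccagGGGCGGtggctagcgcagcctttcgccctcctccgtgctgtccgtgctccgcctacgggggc
Pdk2, chr11:95041372-95041621, minus strand: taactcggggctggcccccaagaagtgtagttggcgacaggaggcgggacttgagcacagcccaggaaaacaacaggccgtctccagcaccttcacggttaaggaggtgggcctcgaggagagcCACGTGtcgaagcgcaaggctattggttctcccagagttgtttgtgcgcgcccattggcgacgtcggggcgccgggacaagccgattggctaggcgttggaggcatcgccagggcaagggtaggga
The Pdk1 window holds 1 match to GGGCGG and none to ACGTG, and the Pdk2 window holds the E-box. The form GCGTG was neither marked nor counted, and the Pdk1 window holds it. Of 32851 promoters in the RefSeq table, 16.6% hold ACGTG in these 250 bases, 6.02% CACGTG, 3.25% TCATGTG, 4.08% AAGGTCA and 32.7% GGGCGG. Of the 36 starts listed for the 21 members that passed a threshold, 14 hold ACGTG, 5 CACGTG, 0 TCATGTG, 1 AAGGTCA and 15 GGGCGG, and some of these starts overlap. A match describes letters and not the binding of a factor.

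In glycogen turnover, Gys1, which encodes glycogen synthase, was at 0 to 23.1 CPM in sums of cells and at 87.5 (78.7 to 97.0) CPM in marginal nuclei, above the 27.3 (21.0 to 34.9) CPM of intermediate nuclei. Pygb, brain glycogen phosphorylase, was at 58.6, 72.7 and 70.0 CPM in marginal, 50.7, 52.9 and 59.9 in intermediate and 68.9, 47.3 and 29.7 in basal cells of captures 1, 2 and 3, and at 88.4 and 96.9 in spindle/root cells of captures 2 and 3, passed no threshold, and gave 89.2% ± 9.33, 83.5% ± 1.78 and 86.5% ± 3.46 (SD, n = 3) of the UMIs of Pygb and Pygl in marginal, intermediate and basal cells. Pygl, the liver form, was at 0 to 16.0 CPM in cells. Pgm1 as the files name it, a phosphoglucomutase that newer annotation calls Pgm2, was at most 15.1 CPM in cells. The gene that newer annotation calls Pgm1 is named Pgm2 in the files and is given with the other pathway genes.

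Whether isoform shares differed between types was tested by an exact permutation test, which takes no direction, with type labels exchanged within captures, for families with at least 20 UMIs in every sum. With all 4 types this left 2 families. The shares of the lactate dehydrogenases differed, with an exact permutation p = 0.0174 where the smallest possible is 0.00174, as did those of the aldolases, with an exact permutation p = 0.0434. For the aldolases the exact permutation p was 0.25, 0.125 and 0.167 without captures 1, 2 and 3. For the lactate dehydrogenases the exact permutation p was 0.167 without capture 1, 0.0417 without capture 2 and 0.167 without capture 3, where the smallest possible is 0.0417. After the data were seen, the test was repeated without spindle/root sums, which left 8 families and a smallest possible p of 0.0278, or 0.167 for hexokinases. Phosphofructokinases and enolases reached that exact permutation p of 0.0278. The shares tested there hold all clusters, the intermediate-rich ones included. The lactate dehydrogenases gave an exact permutation p = 0.111 and the kinases of pyruvate dehydrogenase 0.0556. The pair of Pfkfb genes gave an exact permutation p = 0.0556, the E1 subunits 0.222, hexokinases 0.333 and aldolases 0.694. These p-values are not adjusted for the 8 families.

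Levels in nuclei and cells of the same type were set side by side. Over the 24 tested genes, the level in nuclei was at a median of 36.4% of the mean level in cells for marginal and 41.4% for intermediate cells. Gapdh was lowest, at 0.307% and 0.642%, whereas Ldhb was at 90.4% and 114%. Of the 46 calls of members in cells, 42 had the same direction in the nuclei. The share over all called genes was not computed, so the count says nothing particular to the members. Some of these differences in nuclei were small on the log2(CPM + 10) scale. They were 0.0262 for Tpi1 in marginal, -0.0299 for Slc2a1 in intermediate and -0.0357 for Aldoa in spindle/root nuclei. Cells and nuclei differ in gene list and preparation, which cannot be told apart from a difference in RNA.

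**Figure D5:**
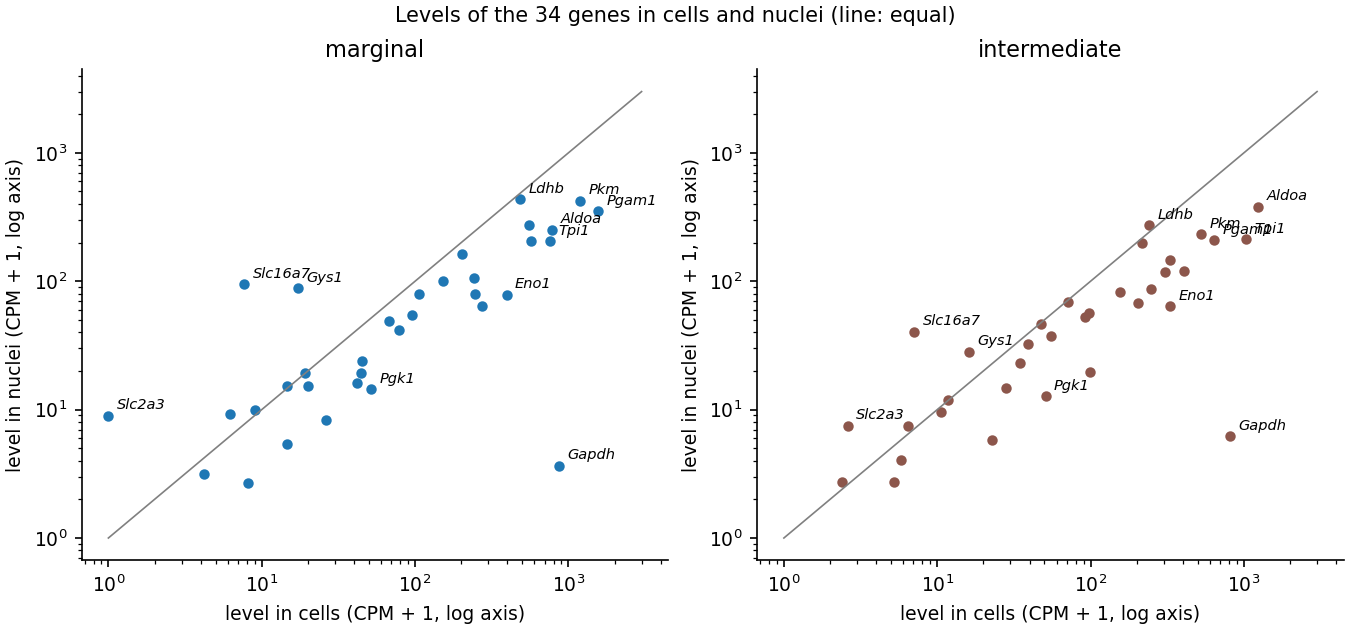
Level of each of the 34 genes in nuclei (vertical axis) against the mean level over cell captures (horizontal axis), both as CPM + 1 on log scales, in marginal and intermediate types, with a line of equal levels. Gapdh lies far below the line, and Slc16a7 and Gys1 lie above it in both types.

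Other genes of these pathways came from 6 lists of 94 genes, of which 56 passed the filter. In marginal cells 13 were higher and 5 lower, where 15.4% and 10.8% of all genes tested were. In intermediate cells 18 were higher and 7 lower, against 21.3% and 16.5%. In basal cells 8 were higher and 8 lower, against 15.8% and 9.75%. In spindle/root cells 5 were higher and 9 lower, against 12.8% and 10.8%. Of the 10 genes of the NADH shuttles, which carry reducing power into mitochondria, 6 were higher and 0 lower in marginal cells, 3 and 2 in intermediate, 0 and 3 in basal and 0 and 3 in spindle/root cells, beside the same shares of all genes. Of the 11 glycogen genes tested, 1 was higher and 1 lower in marginal cells, 5 and 1 in intermediate, 0 and 0 in basal and 1 and 1 in spindle/root cells. The genes named next were the 2 highest and 2 lowest called in each comparison.

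In marginal cells the highest were Slc2a13, a myo-inositol carrier of the glucose transporter family, at 57.2 ± 11.4 CPM (SD, n = 3) against 16.1 ± 2.81 CPM in intermediate cells (2.39 ± 0.42, adjusted p = 1.04e-06), and Slc25a12, the aspartate-glutamate carrier, at 174 ± 16.3 against 58.4 ± 9.37 CPM (1.97 ± 0.22, adjusted p = 5.69e-14). The lowest were Epas1, which encodes a subunit of a hypoxia-inducible factor (-1.24 ± 0.36, adjusted p = 0.00569), and Arrdc4, an arrestin-like relative of Txnip (-1.07 ± 0.42, adjusted p = 0.0484). The log2 fold change of Slc2a13 was 3.74 without capture 3, where spindle/root cells had 0 UMIs of it. Epas1 in marginal cells did not pass without capture 3 (log2 fold change -0.54, adjusted p = 0.548), and Arrdc4 in marginal cells did not pass without capture 1 (log2 fold change -1.06, adjusted p = 0.0816), without capture 2 (log2 fold change -1.33, adjusted p = 0.177) and without capture 3 (log2 fold change -0.79, adjusted p = 0.297). Without removal of doublets Epas1 had a log2 fold change of 1.29 in marginal cells (adjusted p = 0.596).

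In intermediate cells the highest were Hkdc1, a hexokinase relative, at 26.6 ± 14.4 CPM (SD, n = 3) against 10.6 ± 1.49 CPM in marginal cells and 0 UMIs in spindle/root cells (adjusted p = 0.000462), and Slc16a6, a carrier of the monocarboxylate family, at 160.1 ± 44.0 against 46.1 ± 20.1 CPM (2.49 ± 0.25, adjusted p = 1.41e-16). Hkdc1 in intermediate cells did not pass without capture 2 (adjusted p = 0.122). The log2 fold change of Slc16a6 was 3.90 without capture 2, where spindle/root cells had 0 UMIs of it. The lowest were Pgm5 and the glucose transporter gene Slc2a10, each with 0 UMIs in intermediate cells, which allows up to 1.05 CPM (adjusted p = 1.05e-05 and 6.52e-05). Spindle/root cells had 10 UMIs of Pgm5 and 6 of Slc2a10. Neither gene was among those tested without capture 2, nor was Slc2a10 without capture 3. Hif1a, another hypoxia-inducible factor subunit, was at 1491 ± 125 CPM in intermediate and 629 ± 11.4 CPM in marginal cells (2.04 ± 0.11, adjusted p = 1.23e-37), and at 899 (861 to 939) CPM in intermediate against 226 (212 to 241) CPM in marginal nuclei.

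In basal cells the highest were Epas1, at 218, 218 and 284 CPM in captures 1, 2 and 3 against 16.1, 5.61 and 16.0 CPM in intermediate cells (3.33 ± 0.21, adjusted p = 3.49e-28), and Pcx, pyruvate carboxylase, at 37.5 ± 15.8 CPM (SD, n = 3) against 4.04 ± 1.66 CPM (1.96 ± 0.48, adjusted p = 0.00068). Epas1 is also known from endothelium, whose 6 markers summed to 11.4 to 267 CPM over the basal captures, and their part was not tested. In nuclei Epas1 was at 61.2 (46.4 to 79.3) CPM in basal and 2.42 (1.16 to 4.45) CPM in marginal nuclei, with 34.4 and 18.1 CPM of endothelial markers. The lowest in basal cells were Gpd1, glycerol phosphate dehydrogenase (-1.80 ± 0.69, adjusted p = 0.0433), and Arrdc4 (-1.69 ± 0.47, adjusted p = 0.00286). Pcx in basal cells did not pass without capture 3 (log2 fold change 1.47, adjusted p = 0.0995), Gpd1 in basal cells did not pass without capture 1 (log2 fold change -1.37, adjusted p = 0.158) and without capture 2 (log2 fold change 0.56, adjusted p = 0.873) but was at -3.19 without capture 3, and Arrdc4 in basal cells did not pass without capture 2 (log2 fold change -0.78, adjusted p = 0.516) and without the intermediate-rich clusters (log2 fold change -1.01, adjusted p = 0.256).

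In spindle/root cells the highest was Emb, embigin, a partner of monocarboxylate transporters, at 254 and 96.9 CPM in captures 2 and 3. Basal cells had 0 UMIs of Emb, so spindle/root cells were at least 62.1-fold higher than basal cells, taken at the 2.89 CPM that 3 UMIs over their sums would give. The adjusted p was 1.04e-15 in edgeR's quasi-likelihood test and 0.114 in DESeq2. Emb was at 314 (255 to 383) CPM in spindle/root and 3.87 (2.21 to 6.28) CPM in marginal nuclei. Pgm5, a phosphoglucomutase-like protein of cell adhesions, followed, from 10 UMIs in spindle/root cells (adjusted p = 7.47e-06). The lowest were Slc16a6, with 1 UMI in capture 2 and 0 in capture 3 (adjusted p = 0.000577, and 0.0542 in DESeq2), and Ppargc1a, a coactivator of mitochondrial genes (-2.51 ± 0.49, adjusted p = 1.41e-05).

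Bsg, basigin, the other partner of these transporters, was at 1559 ± 36.4 CPM in intermediate and 1452 ± 150.4 CPM in basal against 820.4 ± 120.3 CPM in marginal cells (SD, n = 3), with a log2 fold change of -0.78 ± 0.11, adjusted p = 9.97e-10 in marginal cells. Txnip, which restrains glucose uptake, was at 114 ± 19.9 CPM in intermediate (0.44 ± 0.16, adjusted p = 0.02) and 73.4 ± 33.98 CPM in basal cells (-0.59 ± 0.21, adjusted p = 0.0306). Txnip in intermediate cells did not pass without capture 1 (log2 fold change 0.36, adjusted p = 0.109), without capture 2 (log2 fold change 0.49, adjusted p = 0.0638) and without capture 3 (log2 fold change 0.40, adjusted p = 0.169), and Txnip in basal cells did not pass without capture 1 (log2 fold change -0.47, adjusted p = 0.152), without capture 2 (log2 fold change -0.35, adjusted p = 0.491) and without spindle/root sums (log2 fold change -0.40, adjusted p = 0.121). Pgm2 as the files name it, which newer annotation calls Pgm1, was at 60.1 ± 11.2 CPM in basal cells and passed no threshold there (0.79 ± 0.33, adjusted p = 0.0634).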

How the data were processed

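Libraries of 3 whole-cell captures and 1 nucleus capture were made by the authors, aligned to mm10 and counted with Cell Ranger 2.0.0 per the labels, with its default settings and the mm10 genome that 10x Genomics offers per the study's methods. Under those settings a read counts on the exons of the strand it came from. The deposited values are raw UMI counts per gene and barcode. The gene list of the nuclei is longer than that of the cells, and the annotation behind it and any counting of introns in it are not given in the sources used here. The members, gene lists and motifs were chosen with earlier results of these data known.

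Barcodes had to show 200 genes, and 1, 15 and 20 cells and 978 nuclei with the highest Scrublet scores (scanpy 1.11.5) were removed as doublets, 0.8% for every 1000 barcodes. Cells and nuclei were clustered separately in Seurat 5.3.0 (R 4.3.3) with the members and pathway genes excluded from the variable genes. A cluster was named when at least 3 markers of a class, in at least 10% of its barcodes and 2-fold above all other barcodes, were raised, with the next class under 0.67 of its score. The condition of 3 raised markers for the next class was added after clusters were seen and before any test.

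UMIs were summed per capture and type of at least 5 cells, without mt- genes, and fitted in edgeR 4.0.16 with TMM, filterByExpr, a robust quasi-likelihood fit and the capture as a block, at an adjusted p of 0.05. Same-numbered sums share a suspension and so are paired. Over 4657 genes, deviations from the type means correlated at 0.112 to 0.216 in the 9 pairs of types from 1 capture. The study's own test over single cells was not used, since cells are not replicates. Errors after a log2 fold change are standard errors. All members are named, capture values are given for those past a threshold or with at least 10% of their family, and of pathway genes the 2 highest and 2 lowest calls per comparison and Pgm2, Bsg, Hif1a and Txnip. Near-identical copies were sought with minimap2 2.31 in GENCODE vM21 transcripts. The fits and the permutation test were tested on simulated data. Alternatives were DESeq2 1.42.0, no TMM, no count filter, no block, mt- genes kept, other clusterings and cell limits, and each capture left out. Chosen after seeing the data were the fits without spindle/root sums, without intermediate-rich clusters, with no minimum of cells, with 40 principal components and without Gapdh.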

Additional observations from a re-analysis of the deposited data

Results flagged for a closer look

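The calls of Pdk1 in intermediate and Ldhb in basal cells had the opposite direction in the nuclei to that in every capture, on the log2(CPM + 10) scale against the mean of the other types. These differences between cells and nuclei were not tested, since the nuclei are 1 library. Pdk1 in intermediate cells lay between -0.85 and -0.39 in the captures and at 0.38 in nuclei. Ldhb in basal cells lay between -0.82 and -0.43 in the captures and at 0.17 in nuclei.

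Outside the comparisons, the listed near-identical copies of Gapdh held 983 UMIs in the nucleus library, of which 815 fell on Peli2, a gene of its own, against 79 on Gapdh. Nucleus barcodes without a named type held 8044 CPM of the 34 genes, with 45.7% of their UMIs on mt- genes, where marginal nuclei had 7.05%. Cells without a named type held 8833, 7725 and 7814 CPM in captures 1, 2 and 3, between the intermediate and marginal sums of each capture. Of their UMIs, 42.2, 46.6 and 50.6% were on mt- genes.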

How the results depend on the processing

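Of the 46 calls of members, 24 held in every alternative run. The largest number of losses came without capture 2, which left 1 spindle/root sum. A smaller share of all genes tested was called in every type there too, so these losses are not particular to the members. Leaving out 1 capture at a time gave 9 to 14 called members in spindle/root cells (14 with all captures, and 1 sum left in that type without capture 2 or 3) and 0 to 1 isoform families (2 with all captures). Members allowed among the variable genes gave 1 family, as did, chosen after seeing the data, the first 40 principal components in place of the 37 kept. With no minimum of cells per sum, chosen likewise, the aldolases were the only family tested, with an exact permutation p = 0.0434. Also chosen after seeing the data, leaving out spindle/root sums gave 15 called members in basal cells, 2 higher and 13 lower (6 with them, 3 and 3), and turned Tpi1 and Hk1 in marginal and Pfkl in intermediate cells to -0.0308, -0.0591 and -0.0645 on the log2 scale. Leaving out the intermediate-rich clusters gave 14 in basal cells, and 8533 and 3567 CPM summed in marginal and basal cells. Cells with at least 1000 UMIs outside mt- genes turned Ldha in intermediate cells to -0.0576. Without removal of doublets, Epas1 turned to 1.29 in marginal and 0.29 in intermediate cells. Leaving out 1 capture at a time put Gpd1 in basal cells at -3.19 (without capture 3) to 0.56 (without capture 2). DESeq2 did not call Pdha1 and Hk1 in marginal, Ldha in intermediate, Pdha1 in basal and Aldoa and Pdhb in spindle/root cells. Without removal of doublets Slc2a1 and Pdk1 in marginal and intermediate, Hk1 in intermediate and Eno2 and Pdhb in spindle/root cells were not called. With at least 1000 UMIs per cell Ldha, Hk1, Pfkl and Pdk2 in intermediate and Pdha1 and Pdhb in spindle/root cells were not called. The causes were not tested.

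With mt- genes kept, the summed level was 6539.8, 4590.2, 3979.6 and 3514 CPM in marginal, intermediate, basal and spindle/root cells and 3058, 2449.9, 2229 and 1819.8 CPM in nuclei. Without the member with the most UMIs, Aldoa in cells and Ldhb in nuclei, it was 8146, 6116, 4553 and 3463 CPM in cells and 2854, 2381, 2262 and 1774 CPM in nuclei. Without Gapdh it was 8063, 6547 and 3004 CPM in marginal, intermediate and spindle/root cells. Resolution 1.2 gave 6550.0 and cells with at least 1000 UMIs 6059 CPM in intermediate cells, and no minimum of cells 4407 CPM in spindle/root cells. Without removal of doublets it was 3519.6 CPM in spindle/root cells and 3437, 2838, 2907 and 2483 CPM in nuclei.

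Without the replicate block, which pairs sums by capture, 13, 13, 6 and 14 members were called in marginal, intermediate, basal and spindle/root cells, and no call of a member was lost. Of all genes tested in these types without the block, 14.5%, 19.8%, 14.8% and 12.5% were higher. The shares lower were 9.59%, 15.9%, 9.1% and 10.4%. For cells against nuclei: No paired analysis was possible because the nuclei are 1 library from a suspension of its own. Without TMM, 1511 genes were higher and 502 lower in marginal cells, where TMM gave 1096 and 771, and the median of all genes moved from 0.05 to 0.21. Requiring 10 cells per sum left the sums as they were. The 31 spindle/root cells limit every comparison that holds them.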
